A study of Mus musculus with 20 samples.

Results

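The genes described here are 36 mouse genes of homologous recombination, the Fanconi anaemia pathway and the mismatch repair and checkpoint steps beside them, taken by gene symbol from the 51456 symbols measured in bone-marrow-derived macrophages. The 36 were all present in the files, and 30 of them reached the mean of 1 FPKQ over all libraries that was required for testing, as did 10843 genes in total. FPKQ is the deposited unit, a value per kilobase of transcript like FPKM on a library scale that the sources used here do not define. The study measured polyadenylated RNA in macrophages grown for 6 days in 50 ng/ml CSF-1, the growth factor on which macrophages survive and divide, from C57BL/6 mice aged 4 to 5 months. Trem2 encodes a lipid-sensing surface receptor of myeloid cells, and R47H is its best-known variant linked to Alzheimer's disease. The groups were Trem2 knockout (KO, labelled as a 5 bp knockout, 5 libraries), Trem2 R47H knock-in (R47H, 5 libraries) and wild type (WT, 10 libraries), with no treatment other than CSF-1. The protocol gives 5 animals per genotype and wild-type littermates for each mutant line, and since the labels give no link between the 10 WT libraries and the lines, all 10 served as the control of both mutants. The samples are listed in the order WT Rep1 to Rep5, KO, WT Rep6 to Rep10 and R47H. If each WT set belonged to the mutant listed after it, differences between the sets and between the mutants could not be told apart. Calls that changed with 1 WT set as sole control are given below.

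Homologous recombination copies the lost stretch of a broken chromosome from the sister chromatid, which exists only after DNA replication. The Fanconi proteins unhook crosslinks between the DNA strands and hand the resulting break to the recombination machinery, BRCA1, BRCA2 and PALB2 prepare the broken end for strand exchange, and the ATR and CHK1 kinases hold the cycle while this happens. Many of these genes are therefore transcribed mainly in cells that replicate their DNA, while sensors of breaks such as the MRE11-RAD50-NBS1 complex and ATM are also used in resting cells. The labels do not state a question about repair. The comparisons below show which of the 36 transcripts changed along with the genes of mitosis and which did not.

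Trem2 itself averaged 24.1 ± 0.435 FPKQ in KO libraries, 652 ± 137 FPKQ in R47H libraries and 806 ± 60.6 FPKQ in WT libraries (SD, n = 5, 5 and 10 throughout). Its log2(FPKQ + 1) differed from WT by -5.00 in KO (exact two-sided permutation p = 6.66e-04) and by -0.33 in R47H (exact p = 0.0167). A division index, the mean log2(FPKQ + 1) of 20 mitotic genes that include none of the 36, averaged 1.72 ± 0.06 in KO, 2.73 ± 0.26 in R47H and 3.76 ± 0.12 in WT libraries. The KO and R47H indices both lay below WT (differences of -2.04 and -1.03, exact two-sided permutation p = 6.66e-04 for each, the smallest p that 5 against 10 allows), and the R47H index lay above KO (1.01, exact p = 0.00794, the smallest for 5 against 5). From the steps between low values, 1 FPKQ stood for 51.7 ± 3.88 fragments of a 2 kb transcript in KO, 52.6 ± 3.60 in R47H and 61.0 ± 5.11 in WT libraries. All 8 macrophage markers averaged above 1 FPKQ, while 0 of the 7 lymphocyte, 6 erythroid and 6 stromal markers did. Of the 8 neutrophil markers 2 averaged above 1 FPKQ, and the 8 summed to 62.4 to 68.3 FPKQ in KO, 49.2 to 58.1 in R47H and 29.8 to 43.9 in WT libraries. A single one of them averaged 39.6 FPKQ over all libraries and made up much of that sum. The macrophage markers summed to 32257 to 34993 FPKQ in KO, 25913 to 29005 in R47H and 22373 to 25726 in WT libraries. The stromal markers summed to 1.32 to 2.12 FPKQ in KO, 0.277 to 1.01 in R47H and 0.327 to 0.702 in WT libraries. The part of these other cell types in the results below was not tested, and in these bulk samples fewer dividing cells and less RNA per cell cannot be told apart.

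In KO macrophages 20 of the 30 tested repair genes fell and 2 rose, against 23.7% and 28.2% of all tested genes. In R47H macrophages 15 fell and 1 rose, against 7.83% and 13.4% of all tested genes. The median difference from WT over the 30 was -0.31 in KO and -0.15 in R47H on the log2(FPKQ + 1) scale, beside 0.01 and 0.04 over all tested genes. Set directly against KO, R47H was higher for 16 of the 30 and lower for 3, against 22.8% and 18.0% of all tested genes, with a median of 0.27 beside 0.03. Of all called genes 54.3% were higher in KO and 63.1% higher in R47H. With libraries rescaled to equal sums these shares were 36.1% and 20.7%, and 20 of the repair genes were called lower in KO and 17 in R47H, beside 32.6% and 16.8% of all genes tested at that scaling. The 2 mutants share their WT libraries, so their differences from WT are given side by side and are not 2 independent observations. These calls use limma on log2(FPKQ + 1) with Benjamini-Hochberg adjustment over all tested genes, and every difference below is on that scale, which understates the change of genes at low levels. Brca1, Brip1, Rad51ap1, Rad54b, Fanca, Fancd2, Fanci, Eme1 and Chek1 averaged under 1 FPKQ in KO libraries and passed the minimum through the other libraries, so their presence among the tested genes already favoured a lower KO value. The same holds in R47H for Brip1, Fancd2 and Eme1, which averaged under 1 FPKQ there too.

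**Figure D1:**
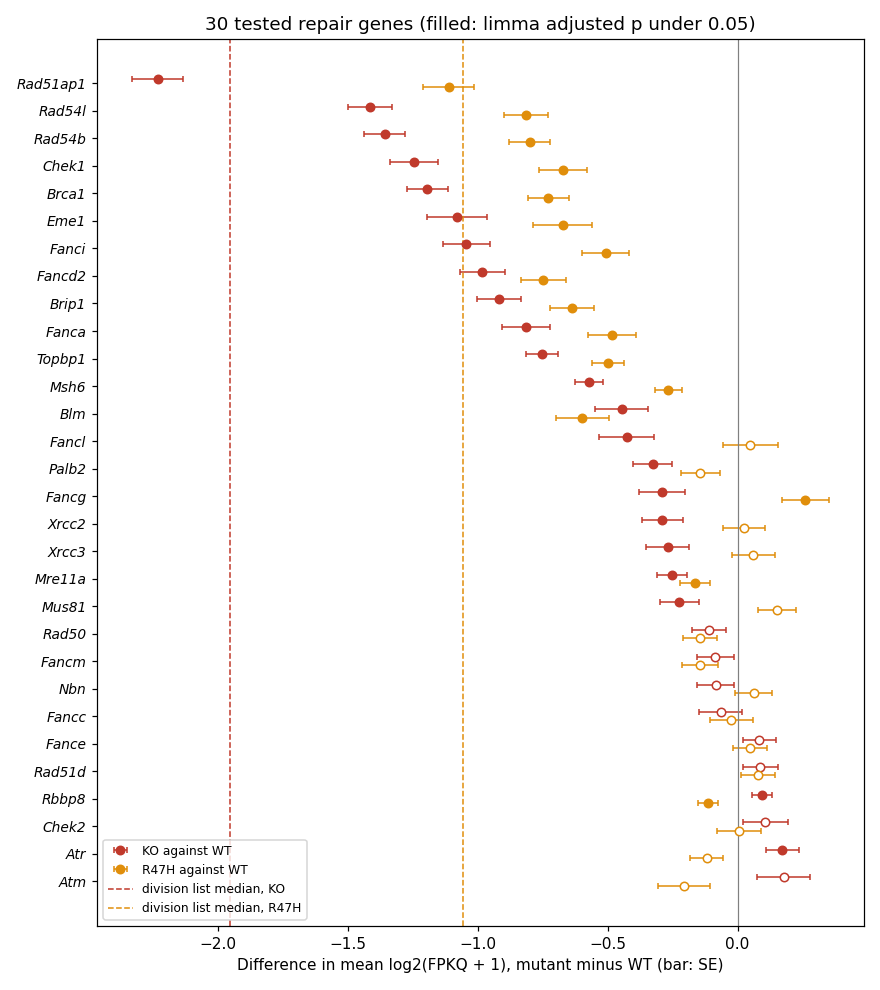
Difference in mean log2(FPKQ + 1) from WT for the 30 tested repair genes (one row each; point: estimate, bar: SE; red: KO, orange: R47H; filled: limma adjusted p under 0.05), with the median of the 20 mitotic genes as dashed lines. Rad51ap1, at -2.23 in KO and -1.11 in R47H, is the gene that passes both medians, and the rows from Rad50 downward lie between -0.21 and 0.18.

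Of the 3 tested BRCA genes all fell in KO, and Brca1 and Brip1 also fell in R47H, with their R47H means between KO and WT. Brca1, the ubiquitin ligase that commits a resected break to recombination, had 1.00, 0.750, 0.712, 0.826 and 0.926 FPKQ in KO libraries and 1.97, 0.991, 1.78, 1.60 and 1.47 FPKQ in R47H libraries, against 2.67 to 3.65 FPKQ in WT libraries (median 3.21). Every KO and every R47H library lay below every WT library, and 1 R47H library, Rep2, lay within the KO range. Brca1 fell by 1.19 ± 0.08 in KO (SE, limma adjusted p = 3.61e-11) and by 0.73 ± 0.08 in R47H (limma adjusted p = 7.48e-07), and R47H exceeded KO by 0.47 ± 0.09 (limma adjusted p = 4.13e-04). Brip1, the helicase bound to BRCA1 and also known as FANCJ, had 0.767, 0.510, 0.479, 0.739 and 0.640 FPKQ in KO libraries and 1.51, 0.655, 0.857, 1.04 and 0.904 FPKQ in R47H libraries, against 1.64 to 2.37 FPKQ in WT libraries (median 2.14). Both mutants again lay wholly below WT, while the 2 mutants overlapped. Brip1 fell by 0.92 ± 0.09 in KO (limma adjusted p = 8.45e-09) and by 0.64 ± 0.09 in R47H (limma adjusted p = 1.21e-05). The excess of R47H over KO (0.28 ± 0.10, limma adjusted p = 0.0266) was no longer called without KO Rep2, KO Rep3 or R47H Rep1 (limma adjusted p = 0.0608, 0.0657 and 0.0889).

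Palb2, which bridges BRCA1 and BRCA2, had smaller differences. It averaged 2.07 ± 0.284 FPKQ in KO, 2.49 ± 0.380 in R47H and 2.84 ± 0.294 in WT libraries. It fell in KO (-0.33 ± 0.08, limma adjusted p = 9.87e-04), and the R47H value of -0.14 ± 0.08 did not pass (limma adjusted p = 0.188), nor did the difference between the mutants (0.18 ± 0.09, limma adjusted p = 0.0966). The remaining BRCA genes were under the minimum level. Bard1, the ligase partner of BRCA1, had 0.245, 0.392, 0.165, 0.293 and 0.333 FPKQ in KO and 0.666, 0.586, 0.688, 0.404 and 0.801 FPKQ in R47H libraries, against 1.07 to 1.63 FPKQ in WT libraries (median 1.39). The 3 groups did not overlap, and the mutant means were 21.2% and 46.6% of the WT mean, a split close to that of Brca1 at 26.2% and 48.6%. Brca2, which acts before strand exchange, had 0.523, 0.511, 0.708, 0.434 and 0.441 FPKQ in KO and 0.554, 0.514, 0.783, 0.571 and 0.427 FPKQ in R47H libraries, against 0.786 to 1.22 FPKQ in WT libraries (median 1.02). Here the mutants overlapped each other almost wholly, at 52.2% and 56.8% of the WT mean, and both lay below WT, with R47H Rep3 at 0.783 FPKQ against 0.786 in the lowest WT library. In a fit without the minimum level, Bard1 and Brca2 were called lower in KO (-0.87 and -0.39, limma adjusted p = 2.18e-09 and 2.34e-05) and in R47H (-0.53 and -0.35, limma adjusted p = 1.40e-05 and 4.22e-04).

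Of the 6 tested strand-exchange genes (8 in all, namely Rad51b, Rad51c, Rad51d, Xrcc2, Xrcc3, Rad51ap1, Rad54l and Rad54b), 5 fell in KO and 3 also in R47H. Rad51ap1, which promotes pairing with the intact duplex, showed the largest fall of the 30 tested genes, with 0.825, 0.825, 0.273, 0.888 and 0.566 FPKQ in KO libraries and 3.42, 2.53, 2.63, 2.08 and 2.50 FPKQ in R47H libraries, against 5.40 to 7.80 FPKQ in WT libraries (median 7.04). The 3 groups were fully separate, with the KO mean at 9.90% and the R47H mean at 38.6% of WT. The differences were -2.23 ± 0.10 in KO (limma adjusted p = 9.67e-14) and -1.11 ± 0.10 in R47H (limma adjusted p = 7.68e-08), and R47H exceeded KO by 1.12 ± 0.11 (limma adjusted p = 1.84e-07). Among the 20 mitotic genes the KO means ran from 9.88% of WT for Ccna2 to 36.8% for Aurkb, so Rad51ap1 lay at the low end of that range.

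Rad54l, the motor protein that helps the broken end invade the template, had 0.878, 0.835, 0.853, 1.27 and 1.23 FPKQ in KO and 2.01, 2.12, 2.23, 2.19 and 1.68 FPKQ in R47H libraries, against 3.21 to 5.19 FPKQ in WT libraries (median 4.46). Its relative Rad54b had 0.400, 0.529, 0.592, 0.381 and 0.343 FPKQ in KO and 1.41, 0.812, 1.33, 1.06 and 1.09 FPKQ in R47H libraries, against 2.26 to 3.25 FPKQ in WT libraries (median 2.71). For both, the 3 groups were fully separate. Rad54l fell by 1.41 ± 0.08 in KO and by 0.81 ± 0.08 in R47H (limma adjusted p = 6.74e-12 and 4.02e-07), and Rad54b by 1.36 ± 0.08 and 0.80 ± 0.08 (limma adjusted p = 5.05e-12 and 2.52e-07). R47H exceeded KO for both (0.60 and 0.56, limma adjusted p = 5.89e-05 and 6.94e-05). Rad54b shares exon sequence on the same strand with Fsbp, which averaged 0.0490 FPKQ in KO, 0.0596 in R47H and 0.217 in WT libraries, so reads of the pair may have been divided between them.

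Rad51d, Xrcc2 and Xrcc3, accessory factors of strand exchange, had R47H means of 103% to 107% of WT, and none passed there. Xrcc2 and Xrcc3 fell in KO (-0.29 ± 0.08 and -0.27 ± 0.08, limma adjusted p = 0.00467 and 0.00934), with R47H values of 0.03 and 0.06 that did not pass (limma adjusted p = 0.861 and 0.647). R47H lay above KO for both in every library (0.31 and 0.33, limma adjusted p = 0.0103 and 0.00898). Xrcc3 overlaps exons of Klc1 on the other strand, whose KO and R47H means were 77.1% and 107% of WT beside 78.2% and 105% for Xrcc3. Exons of Rad54l, Fanca, Fancc, Fancl, Fancd2, Fanci, Mre11a, Mus81, Eme1 and Msh6 also overlap another gene on the opposite strand, and the sources used here do not state whether the authors' counting used strand. Rad51d had 4.63, 4.71, 4.92, 3.73 and 5.13 FPKQ in KO and 4.74, 4.34, 4.70, 4.75 and 4.32 FPKQ in R47H libraries, against 3.49 to 4.92 FPKQ in WT libraries (median 4.29). All 3 groups overlapped, and no comparison passed (KO 0.09 ± 0.07, limma adjusted p = 0.278; R47H 0.08 ± 0.07, limma adjusted p = 0.437).

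Rad51b and Rad51c, which were too low to be tested, had their lowest values in KO. Rad51b had 0.141, 0.131, 0.0916, 0.365 and 0.190 FPKQ in KO and 0.690, 0.255, 0.444, 0.297 and 0.416 FPKQ in R47H libraries, against 0.598 to 1.28 FPKQ in WT libraries (median 0.784). KO was separate from WT, and 1 R47H library reached the WT range. Rad51c had 0.152, 0.319, 0.313, 0.600 and 0.144 FPKQ in KO and 0.945, 0.846, 0.953, 0.880 and 0.745 FPKQ in R47H libraries, against 0.541 to 1.70 FPKQ in WT libraries (median 1.02). All R47H libraries lay above all KO libraries and inside the WT range. Without the minimum level, Rad51b was called lower in both mutants (-0.64 in KO and -0.38 in R47H, limma adjusted p = 2.39e-06 and 0.00302). Rad51c was called lower in KO (-0.68, limma adjusted p = 6.74e-05), its R47H value of -0.15 did not pass (limma adjusted p = 0.524), and R47H exceeded KO (0.53, limma adjusted p = 0.00524).

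**Figure D2:**
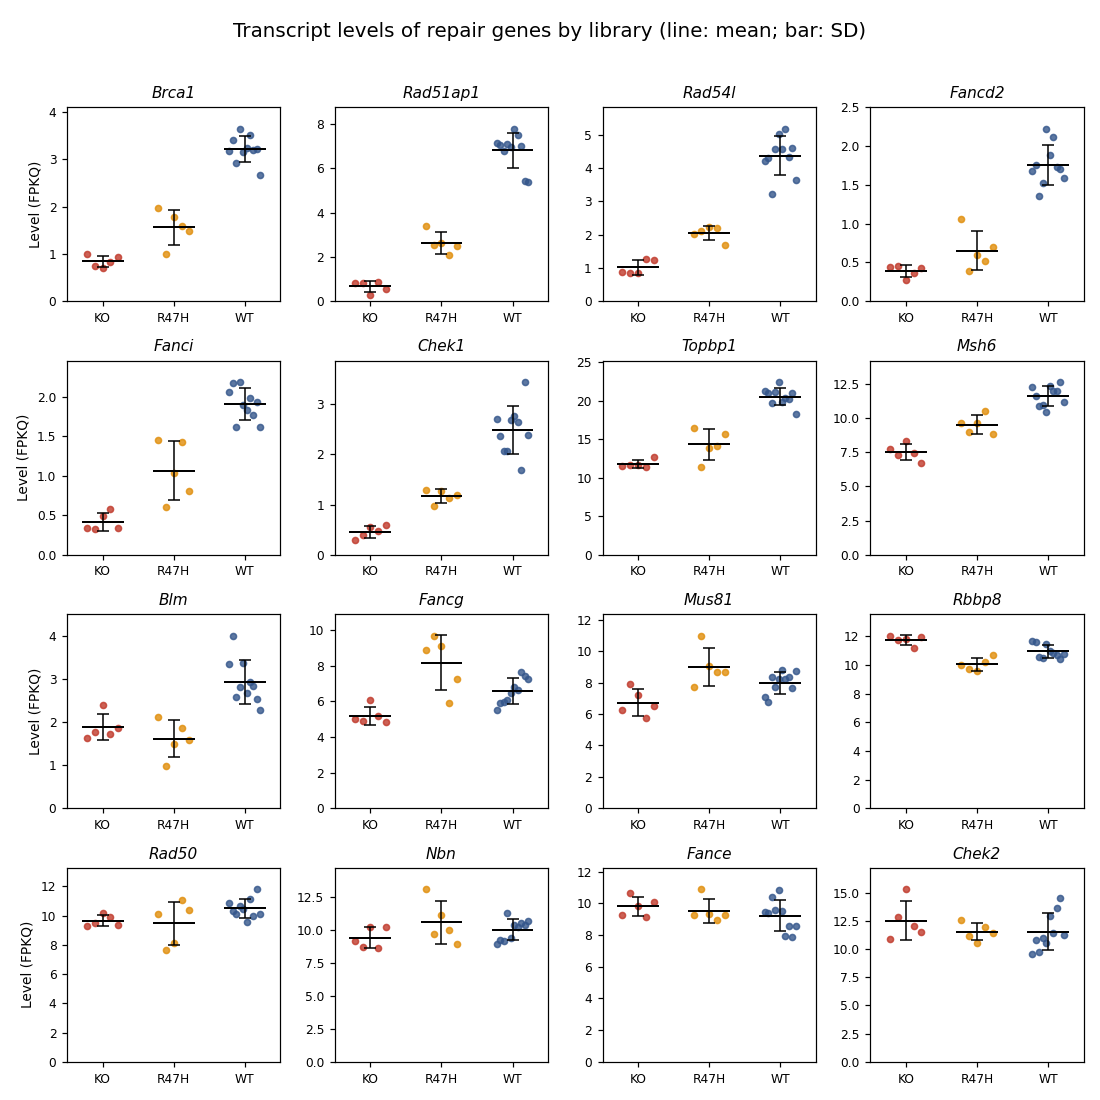
Level in FPKQ (vertical axes, from 0) of 16 repair genes in each library, by group (KO red, R47H orange, WT blue; line: mean, bar: SD). The upper rows hold genes that fell in both mutants, such as Rad51ap1 with KO at 0.273 to 0.888 FPKQ and WT at 5.40 to 7.80 FPKQ, and the bottom row holds genes whose groups overlap.

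The promoters of the 2 genes with the largest falls and of the 2 tested genes nearest to no change in KO (among those in the promoter table) are shown because they set an E2F motif, which is typical of genes switched on for DNA replication, beside windows in which it was not found. The windows run from 250 bases before to 50 after the RefSeq start on GRCm38.p6, at chr6:126939538-126939837 (minus strand) for Rad51ap1, chr4:116123641-116123940 (minus) for Rad54l, chr13:63431696-63431995 (minus) for Fancc and chr17:28313280-28313579 (plus) for Fance. Capitals mark the E2F core on either strand (written GCGGGAA where it lies on the reverse strand) and the CCAAT box (written ATTGG there).
Rad51ap1: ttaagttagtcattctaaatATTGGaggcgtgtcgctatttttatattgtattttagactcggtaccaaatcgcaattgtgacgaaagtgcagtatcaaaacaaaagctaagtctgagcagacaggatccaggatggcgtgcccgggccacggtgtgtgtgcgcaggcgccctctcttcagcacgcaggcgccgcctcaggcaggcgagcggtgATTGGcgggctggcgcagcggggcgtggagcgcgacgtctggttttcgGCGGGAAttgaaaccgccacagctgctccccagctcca
Rad54l: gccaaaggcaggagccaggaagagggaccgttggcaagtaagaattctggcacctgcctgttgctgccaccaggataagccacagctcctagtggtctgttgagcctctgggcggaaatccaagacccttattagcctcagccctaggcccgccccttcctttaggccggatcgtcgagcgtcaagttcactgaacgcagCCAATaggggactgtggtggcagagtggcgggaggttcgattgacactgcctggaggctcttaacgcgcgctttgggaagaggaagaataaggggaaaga
Fancc: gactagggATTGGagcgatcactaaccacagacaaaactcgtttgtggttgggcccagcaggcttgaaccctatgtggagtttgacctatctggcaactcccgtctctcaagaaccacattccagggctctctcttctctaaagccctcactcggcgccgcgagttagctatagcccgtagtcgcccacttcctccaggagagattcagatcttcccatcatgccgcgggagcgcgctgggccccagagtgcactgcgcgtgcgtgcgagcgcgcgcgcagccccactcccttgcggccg
Fance: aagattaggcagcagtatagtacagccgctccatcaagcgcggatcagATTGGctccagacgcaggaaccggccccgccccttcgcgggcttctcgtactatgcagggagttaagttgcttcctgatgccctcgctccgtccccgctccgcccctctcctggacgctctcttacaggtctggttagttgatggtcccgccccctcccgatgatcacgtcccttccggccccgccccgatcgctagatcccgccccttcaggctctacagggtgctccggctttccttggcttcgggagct

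The E2F core was searched as TTCCCGC or TTGGCGC or TTCGCGC or TTGCCGC on both strands. It stood in 16 of the 28 repair genes with a promoter in the table (57.1%), beside 1667 of the 8343 tested genes with one and 10.9% of all 27025 promoters. In Rad51ap1 it began 13 bases after the start on the reverse strand, and the Rad54l, Fancc and Fance windows held none of these letters. The core did not separate the genes by their calls, since it stood in 8 of 12 with a promoter that fell in both mutants, 1 of 5 that fell in KO and not in R47H, 3 of 5 called in neither and 4 of 5 under the minimum level. An 8-letter form with a further T in front, which contains the core, was searched first and stood in 7 of the 28 (25.0%), beside 4.83% of tested genes. The CHR element TTTGAA, typical of mitotic genes, stood in 3 of the 28 (10.7%, beside 14.4% of tested genes) and in 11 of the 16 mitotic genes with a promoter (68.8%), of which 3 held the E2F core. CCAAT stood in 17 of the 28 (60.7%) and in 43.4% of tested genes. A match describes letters only, and the motifs were chosen with the expression results known.

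The 7 Fanconi core genes, which form the ubiquitin ligase of the pathway, divided into genes that fell and genes that did not, and Fancg was called in opposite directions in the 2 mutants. Fanca, the scaffold of the complex, had 0.746, 0.401, 0.559, 0.481 and 0.779 FPKQ in KO and 1.20, 0.670, 1.26, 1.07 and 0.852 FPKQ in R47H libraries, against 1.40 to 2.37 FPKQ in WT libraries (median 1.77). Both mutants lay below WT and overlapped each other. Fanca fell by 0.82 ± 0.09 in KO and by 0.48 ± 0.09 in R47H (limma adjusted p = 1.72e-07 and 6.12e-04), and R47H exceeded KO by 0.33 ± 0.11 (limma adjusted p = 0.0167). Fancl, the catalytic subunit, averaged 4.12 ± 0.667 FPKQ in KO, 6.11 ± 0.713 in R47H and 5.91 ± 1.05 in WT libraries. Every R47H library of Fancl lay above every KO library (0.48 ± 0.12, limma adjusted p = 0.00402), Fancl fell in KO (-0.43 ± 0.11, limma adjusted p = 0.00187), and its R47H value of 0.05 did not pass (limma adjusted p = 0.785). Vrk2, which overlaps it on the other strand, averaged 71.3% of WT in KO and 86.7% in R47H, beside 69.8% and 103% for Fancl.

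Fancg, a subunit bound to FANCA, ranged over 4.82 to 6.06 FPKQ in KO, 5.89 to 9.69 in R47H and 5.51 to 7.67 in WT libraries. It fell in KO (-0.29 ± 0.09, limma adjusted p = 0.00960) and rose in R47H (0.26 ± 0.09, limma adjusted p = 0.0407), and the difference between the mutants was 0.55 ± 0.10 (limma adjusted p = 2.74e-04). The WT libraries themselves differed, with 6.00 ± 0.337 FPKQ in WT Rep1 to Rep5 and 7.17 ± 0.426 in WT Rep6 to Rep10. With WT Rep1 to Rep5 as sole control the KO call ended (-0.18, limma adjusted p = 0.172), and with WT Rep6 to Rep10 as sole control the R47H call ended (0.15, limma adjusted p = 0.352). Fancl lost its KO call against WT Rep1 to Rep5 in the same way (-0.27, limma adjusted p = 0.0580), at WT means of 5.18 ± 0.852 FPKQ in Rep1 to Rep5 and 6.64 ± 0.665 in Rep6 to Rep10. The differences between R47H and KO do not use these libraries' levels, which enter only through the estimate of the spread. Both were called with either WT set in the fit. That could not show whether a difference like that between the WT sets also lay between the mutants, which was not tested.

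Fancc, Fance and Fancm did not pass in any comparison. Fancc, a core subunit, had 2.24, 2.29, 2.22, 2.45 and 2.93 FPKQ in KO and 2.60, 2.75, 3.06, 2.13 and 2.14 FPKQ in R47H libraries, against 1.94 to 3.07 FPKQ in WT libraries (median 2.61). Fance, which joins the core to FANCD2, had 9.28, 10.6, 9.86, 9.13 and 10.1 FPKQ in KO and 9.26, 10.9, 9.29, 8.93 and 9.27 FPKQ in R47H libraries, against 7.86 to 10.8 FPKQ in WT libraries (median 9.44). Fancm, the translocase that brings the core to DNA, had 1.22, 1.23, 1.56, 1.10 and 1.20 FPKQ in KO and 1.33, 0.990, 0.901, 1.29 and 1.36 FPKQ in R47H libraries, against 1.19 to 1.60 FPKQ in WT libraries (median 1.40). The groups overlapped for all 3 genes, and the KO differences were -0.06 ± 0.08, 0.08 ± 0.07 and -0.08 ± 0.07 (limma adjusted p = 0.537, 0.292 and 0.329 in the order named). With WT Rep6 to Rep10 as sole control Fance was called higher in KO (0.19, limma adjusted p = 0.0242). Fancb, an X-linked core subunit under the minimum level, had 0.367, 0.611, 0.821, 0.766 and 0.827 FPKQ in KO and 0.800, 0.548, 0.721, 0.636 and 0.275 FPKQ in R47H libraries, against 0.863 to 1.44 FPKQ in WT libraries (median 1.17). Both mutants lay below WT and overlapped each other, and without the minimum level both were called lower (-0.37 in KO and -0.44 in R47H, limma adjusted p = 0.00213 and 0.00158).

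The ID complex, the clamp that the Fanconi core ubiquitinates, was low in both mutants. Fancd2 had 0.441, 0.457, 0.271, 0.361 and 0.427 FPKQ in KO and 1.06, 0.387, 0.592, 0.521 and 0.695 FPKQ in R47H libraries, against 1.35 to 2.22 FPKQ in WT libraries (median 1.72). Its partner Fanci had 0.334, 0.319, 0.483, 0.576 and 0.333 FPKQ in KO and 1.45, 0.608, 1.04, 1.42 and 0.806 FPKQ in R47H libraries, against 1.61 to 2.18 FPKQ in WT libraries (median 1.91). Fanci separated all 3 groups, whereas for Fancd2 an R47H library, Rep2, fell inside the KO range. Fancd2 fell by 0.98 ± 0.09 in KO and by 0.75 ± 0.09 in R47H (limma adjusted p = 4.01e-09 and 2.04e-06), and Fanci by 1.04 ± 0.09 and 0.51 ± 0.09 (limma adjusted p = 2.96e-09 and 3.12e-04). R47H exceeded KO for Fanci (0.54 ± 0.10, limma adjusted p = 4.19e-04). For Fancd2 that difference did not pass (0.24 ± 0.10, limma adjusted p = 0.0662), though it did without R47H Rep2 (limma adjusted p = 0.0284).

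Of the 4 tested genes that recognise and trim broken ends, Nbn and Rad50 passed in no comparison of the 3-group fit. Nbn, the NBS1 subunit of the sensor complex, had 9.17, 8.72, 10.3, 8.63 and 10.2 FPKQ in KO and 13.1, 9.68, 11.2, 9.98 and 8.95 FPKQ in R47H libraries, against 8.95 to 11.3 FPKQ in WT libraries (median 10.3). Rad50, the long coiled-coil subunit, averaged 9.65 ± 0.377 FPKQ in KO, 9.47 ± 1.49 in R47H and 10.5 ± 0.647 in WT libraries. The groups overlapped for both, and neither passed in KO (-0.08 ± 0.07 and -0.11 ± 0.07, limma adjusted p = 0.337 and 0.175) or in R47H (0.06 and -0.14, limma adjusted p = 0.585 and 0.128). Rad50 was called lower in KO with only the groups compared in the fit (limma adjusted p = 0.0499), and lower in R47H with equal sums or without R47H Rep4 (limma adjusted p = 0.0371 and 0.0339). The nuclease subunit Mre11a averaged 6.03 ± 0.268 FPKQ in KO, 6.49 ± 0.569 in R47H and 7.38 ± 0.638 in WT libraries. Mre11a fell in KO, where every library lay below WT (-0.25 ± 0.06, limma adjusted p = 9.72e-04). Its R47H call (-0.16 ± 0.06, limma adjusted p = 0.0486) was lost in 14 of the 20 fits that each left out 1 library.

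Rbbp8, which encodes CtIP, the cofactor that starts resection, was higher in KO and lower in R47H. It had 12.03, 11.7, 11.8, 11.2 and 12.0 FPKQ in KO and 9.97, 9.73, 9.57, 10.2 and 10.7 FPKQ in R47H libraries, against 10.4 to 11.6 FPKQ in WT libraries (median 10.8). Each mutant overlapped WT, while the R47H libraries lay below all KO libraries. The KO rise of 0.09 ± 0.04 and the R47H fall of 0.11 ± 0.04 were near the threshold (limma adjusted p = 0.0420 and 0.0386), and the difference of R47H from KO was -0.21 ± 0.04 (limma adjusted p = 8.82e-04). The KO call was lost in 11 of the 20 fits that left out 1 library (highest limma adjusted p = 0.0956) and the R47H call in 8 (highest 0.101). With WT Rep1 to Rep5 as sole control neither passed (limma adjusted p = 0.242 and 0.0585). Exo1, the exonuclease that extends resection, was under the minimum level, with 0.173, 0.169, 0.196, 0.217 and 0.292 FPKQ in KO and 0.554, 0.258, 0.420, 0.388 and 0.383 FPKQ in R47H libraries, against 0.667 to 1.06 FPKQ in WT libraries (median 0.877). Both mutants lay below WT, at 24.0% and 45.9% of its mean, and without the minimum level both were called lower (-0.63 and -0.42, limma adjusted p = 2.02e-09 and 4.85e-06).

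The 3 genes that resolve joined DNA molecules fell in KO, and Eme1 and Blm also fell in R47H. Eme1, the regulatory partner of the MUS81 nuclease, had 0.352, 0.369, 0.488, 0.663 and 0.257 FPKQ in KO and 0.967, 0.517, 1.56, 1.10 and 0.467 FPKQ in R47H libraries, against 1.60 to 2.64 FPKQ in WT libraries (median 2.00). Eme1 fell by 1.08 ± 0.11 in KO and by 0.67 ± 0.11 in R47H (limma adjusted p = 6.45e-08 and 1.86e-04), with both mutants below WT and the R47H libraries spread from the KO range nearly to WT. R47H exceeded KO by 0.41 ± 0.13 (limma adjusted p = 0.0182), which was not called without R47H Rep3 (limma adjusted p = 0.0662).

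Mus81, the catalytic partner of EME1, averaged 6.71 ± 0.848 FPKQ in KO, 9.02 ± 1.21 in R47H and 7.99 ± 0.685 in WT libraries, so the 2 subunits of one nuclease were at 84.1% and 21.2% of WT in KO and at 113% and 45.8% in R47H (Mus81 first). Mus81 fell in KO (-0.22 ± 0.07, limma adjusted p = 0.0158), its R47H value of 0.15 did not pass (limma adjusted p = 0.157), and R47H exceeded KO by 0.38 ± 0.09 (limma adjusted p = 0.00170). Its KO call ended without KO Rep4 (limma adjusted p = 0.0645) and with WT Rep1 to Rep5 as sole control (limma adjusted p = 0.163). Blm, the helicase that dissolves double junctions, averaged 1.88 ± 0.301 FPKQ in KO, 1.61 ± 0.428 in R47H and 2.93 ± 0.507 in WT libraries. Blm fell in both (-0.45 ± 0.10 in KO and -0.60 ± 0.10 in R47H, limma adjusted p = 9.32e-04 and 1.97e-04). The R47H mean of Blm was the lower one, unlike that of the mitotic genes, and the difference between the mutants did not pass (-0.15 ± 0.12, limma adjusted p = 0.315). WT libraries of Blm averaged 3.22 ± 0.552 FPKQ in Rep1 to Rep5 and 2.64 ± 0.255 in Rep6 to Rep10. With WT Rep1 to Rep5 as sole control the differences were -0.55 in KO and -0.70 in R47H. With WT Rep6 to Rep10 they were -0.34 and -0.49.

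Of the 5 checkpoint genes, Chek1 and Topbp1 fell in both mutants and Atr rose in KO. Chek1, the kinase that acts under replication stress, had 0.298, 0.391, 0.551, 0.466 and 0.598 FPKQ in KO and 1.29, 0.968, 1.28, 1.12 and 1.20 FPKQ in R47H libraries, against 1.70 to 3.44 FPKQ in WT libraries (median 2.51). The 3 groups were fully separate. Chek1 fell by 1.24 ± 0.09 in KO and by 0.67 ± 0.09 in R47H (limma adjusted p = 2.20e-10 and 1.50e-05), and R47H exceeded KO by 0.57 ± 0.11 (limma adjusted p = 2.36e-04). Topbp1, the activator of ATR, averaged 11.8 ± 0.528 FPKQ in KO, 14.3 ± 1.96 in R47H and 20.5 ± 1.13 in WT libraries. Topbp1 fell by 0.75 ± 0.06 and 0.50 ± 0.06 (limma adjusted p = 1.26e-09 in KO and 4.50e-06 in R47H), with both mutants below WT and R47H Rep2 inside the KO range.

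Atr and Atm, the kinases at the head of the 2 checkpoint pathways, were lower in R47H than in KO. The WT sets also differed. Atr averaged 2.99 ± 0.203 FPKQ in WT Rep1 to Rep5 and 2.61 ± 0.262 in WT Rep6 to Rep10, and Atm 2.34 ± 0.187 and 1.99 ± 0.257. With WT Rep6 to Rep10 as sole control the R47H value of Atr was -0.05 (limma adjusted p = 0.719). The part of the WT sets in the difference between the mutants was not tested. Atr, the kinase recruited to single-stranded DNA, had 3.05, 3.04, 3.63, 3.36 and 3.31 FPKQ in KO and 2.77, 2.14, 2.39, 2.58 and 2.60 FPKQ in R47H libraries, against 2.32 to 3.23 FPKQ in WT libraries (median 2.78). Every R47H library lay below every KO library, and both mutants overlapped WT. Atr rose in KO (0.17 ± 0.06, limma adjusted p = 0.0275), its R47H value of -0.12 did not pass (limma adjusted p = 0.202), and R47H differed from KO by -0.29 ± 0.07 (limma adjusted p = 0.00368). The KO rise was lost without KO Rep3, Rep4 or Rep5 (limma adjusted p = 0.0887, 0.0575 and 0.0522) and with WT Rep1 to Rep5 as sole control (limma adjusted p = 0.256). Atm, the kinase activated by breaks, averaged 2.60 ± 0.538 FPKQ in KO, 1.77 ± 0.450 in R47H and 2.17 ± 0.280 in WT libraries. Neither mutant passed against WT for Atm (0.18 and -0.21, limma adjusted p = 0.149 and 0.158), although without KO Rep4 Atm was called higher in KO (0.27, limma adjusted p = 0.0248), and R47H was lower than KO (-0.38 ± 0.12, limma adjusted p = 0.0125). Chek2, the kinase below ATM, averaged 12.5 ± 1.72 FPKQ in KO, 11.5 ± 0.761 in R47H and 11.6 ± 1.62 in WT libraries and passed in no comparison (KO 0.11 ± 0.09, limma adjusted p = 0.303), though with WT Rep1 to Rep5 as sole control it was called higher in KO (0.24, limma adjusted p = 0.0173).

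Msh6, which recognises single mismatches, averaged 7.50 ± 0.598 FPKQ in KO, 9.50 ± 0.681 in R47H and 11.6 ± 0.736 in WT libraries. Msh6 fell by 0.57 ± 0.05 in KO and by 0.27 ± 0.05 in R47H (limma adjusted p = 9.04e-09 and 9.36e-04), and every R47H library lay above every KO library (0.31 ± 0.06, limma adjusted p = 5.56e-04).

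Over the 36 genes, all KO libraries lay below all WT libraries for 20, and all R47H libraries lay below all WT libraries for 16. Over the tested genes alone this held for 15 and 12 of 30, beside 13.3% and 3.14% of all tested genes by the same rule. The 15 include Brca1, Brip1, Rad51ap1, Rad54b, Fanca, Fancd2, Fanci, Eme1 and Chek1, which averaged under 1 FPKQ in KO. The 12 include Brip1, Fancd2 and Eme1, which did so in R47H. These genes passed the minimum through the libraries where they were higher, which favours such a separation. Every library lay above every WT library for 0 of the 30 in KO and 0 in R47H, beside 15.4% and 3.77%. R47H lay wholly above KO for 9 of the 30 and wholly below for 2, beside 12.3% and 10.8%. As a share of the WT mean, the KO means of 14 genes ran from 9.90% for Rad51ap1 to 32.8% for Fanca, inside the range of the mitotic genes in KO. The other 22 ran from 52.2% for Brca2 to 120% for Atm. In R47H the means ran from 37.0% of WT for Fancd2 to 124% for Fancg, and the mitotic genes from 35.3% for Cenpf to 61.4% for Cdk1. Brca2, Fancb and Blm, at 52.2%, 58.6% and 64.1% of WT in KO, were at 56.8%, 51.5% and 54.9% in R47H, whereas Topbp1, at 57.4% in KO, was at 69.8% in R47H. R47H against KO was not called for Blm (limma adjusted p = 0.315). Nor was it for Brca2 and Fancb in the fit without the minimum level (limma adjusted p = 0.760 and 0.688). It was called for Topbp1 (limma adjusted p = 0.00774), though not with equal sums (limma adjusted p = 0.0597).

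**Figure D3:**
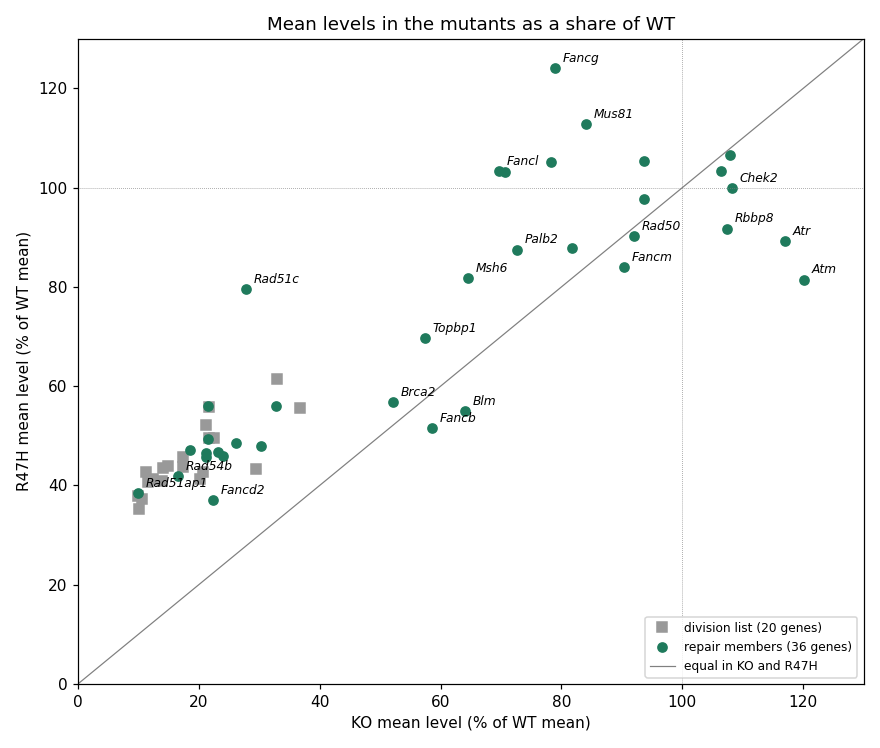
R47H mean level (vertical) against KO mean level (horizontal), both as a percentage of the WT mean, for the 36 repair genes (green circles) and the 20 mitotic genes (grey squares), with the diagonal marking equal levels in both mutants. A group of repair genes lies between 9.90% and 32.8% on the KO axis, where all but Rad51c (79.6% in R47H) are at 37.0% to 56.0% in R47H, within the mitotic range of 35.3% to 61.4%. The remainder lies from 52.2% to 120%, and Fancg stands highest at 124% in R47H.

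A second measure asked whether a gene followed the division index among libraries of one genotype, which does not use the difference between genotypes. Only Brca1 and Brip1 of the 30 tested genes had a called slope in the fit of all 20 libraries, both positive, against 0.498% of all tested genes with a positive call. Brca1 rose by 0.76 ± 0.15 and Brip1 by 0.78 ± 0.18 in log2(FPKQ + 1) per unit of the index (SE, limma adjusted p = 0.0203 and 0.0435). Brca1 and Brip1 are the genes that fell in both mutants and followed the index within genotype. Another 11 positive slopes had an unadjusted p under 0.05, among them Fanca, Fancd2, Blm, Fanci and Topbp1 at 0.78, 0.74, 0.79, 0.71 and 0.49. So did 1 negative slope, that of Mus81. Of the 30 slopes 26 were positive, with a median of 0.22 beside -0.02 over all tested genes. Rad51ap1, Rad54l and Chek1, which were among the largest falls between genotypes, had slopes of 0.57 ± 0.26, 0.43 ± 0.22 and 0.24 ± 0.26 that did not pass (limma adjusted p = 0.481, 0.573 and 0.846). Mus81 had the lowest slope, -0.53 ± 0.18 (limma adjusted p = 0.328).

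The slope rests mostly on the R47H libraries, whose index ran from 2.36 in Rep2 to 3.06 in Rep1, while KO ran from 1.65 to 1.78 and WT from 3.56 to 3.90. In the same 2 R47H libraries, Brca1 was lowest in Rep2 and highest in Rep1. The Brca1 call ended without R47H Rep1 or Rep2 (limma adjusted p = 0.144 and 0.396), and the Brip1 call ended in 18 of the 20 fits that left out 1 library (limma adjusted p up to 0.507). Of the 20 mitotic genes, which make up the index, 15 had a called slope, and of 20 S phase genes, which do not, 2 did.

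**Figure D4:**
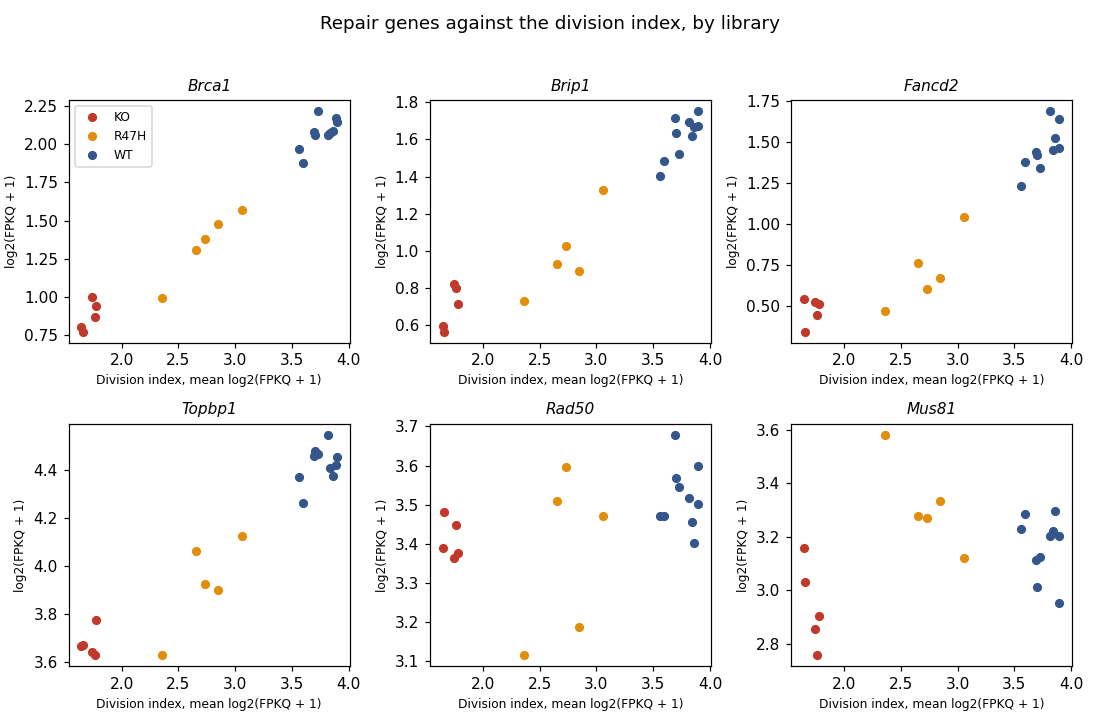
Level as log2(FPKQ + 1) (vertical) against the division index (horizontal) for 6 repair genes, 1 point per library (KO red, R47H orange, WT blue). In Brca1, Brip1, Fancd2 and Topbp1 the R47H library with the lowest index (2.36) is the lowest of the 5 and the one with the highest index (3.06) is the highest, while the group means of Rad50 and Mus81 do not follow the order of the index.

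Counts in other repair lists are read beside the shares of all tested genes, 23.7% lower and 28.2% higher in KO and 7.83% lower and 13.4% higher in R47H. Of 30 tested genes in a list of other recombination and Fanconi genes, 16 fell and 4 rose in KO, and 12 fell and 0 rose in R47H, with medians of -0.19 and -0.12 (limma; 1 was higher in R47H at an unadjusted p under 0.05). Its leading genes included Fignl1, an ATPase (-1.90 in KO and -0.90 in R47H), and the replication protein Rpa2 (-1.33 and -0.40), and both were called in both mutants, with the highest limma adjusted p at 1.05e-04. End joining, which needs no sister chromatid, had 4 of 11 lower and 2 higher in KO, and 1 lower and 0 higher in R47H (limma; 1 was higher at an unadjusted p under 0.05), with medians of 0.04 and 0.03. Its higher counts were no larger than those shares would give. There the nuclease Artemis (Dclre1c) and the kinase subunit Prkdc rose in KO (0.43 and 0.23, limma adjusted p = 9.16e-04 and 0.00275), and the Ku subunit Xrcc6 fell (-0.25, limma adjusted p = 0.00335).

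Of the other mismatch repair genes, 1 of 6 was lower and 1 higher (Mlh3, 0.41, limma adjusted p = 1.21e-04) in KO. In R47H 0 of the 6 were called by limma, and 0 had an unadjusted p under 0.05. Base excision and single-strand break repair had 8 of 17 lower and 3 higher in KO and 4 lower and 1 higher in R47H, led by the replicative ligase Lig1 (-1.50) and the glycosylases Neil3 (-2.06) and Ung (-0.97). Nucleotide excision repair had 2 of 14 lower and 4 higher in KO, and 0 lower and 2 higher in R47H (limma; also 0 lower at an unadjusted p under 0.05), and the higher counts are near the shares over all tested genes. The damage sensor Xpc (0.34) and the nuclease Ercc5 (0.35) were higher in KO. The other checkpoint genes had 8 of 17 lower in KO and 6 in R47H, and 0 were higher in either mutant by limma or at an unadjusted p under 0.05. They were led by the fork-protection genes Clspn, Timeless and Tipin (-1.76, -1.31 and -1.12 in KO). Of the p53 target genes, 5 of 14 were higher and 3 lower in KO, and 4 were higher and 0 lower in R47H (limma; 1 was lower at an unadjusted p under 0.05), in KO close to the shares over all tested genes. Gadd45a (1.44 in KO and 0.94 in R47H) and Trp53inp1 (0.67 and 0.25) were higher in both mutants, and Plk2 was lower in KO (-1.40, limma adjusted p = 1.54e-11). All 20 S phase genes fell in KO and 19 in R47H, with medians of -1.27 and -0.70, and the mitotic list had medians of -1.95 and -1.06.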

How the data were processed

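RNA was measured in 20 libraries of bone-marrow-derived macrophages (5 KO, 5 R47H, 10 WT). The authors deposited 1 table per library of FPKQ, an FPKM-like value, per the file headers. RSEM and the GRCm38 build are named in the submitters' processing notes, which give no version, annotation or strand setting. Libraries were strand-specific and read as 75-base pairs, per the labels' protocols.

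Genes whose mean over the 20 libraries reached 1 FPKQ entered limma 3.58.1 (R 4.3.3, empirical Bayes with trend) on log2(FPKQ + 1), in 1 model of 3 groups with Benjamini-Hochberg adjustment over all 10843 genes and a threshold of 0.05. The slope on the division index had genotype as a factor. Single values had exact permutation tests in R, and summaries and motif searches were made in Python 3.11.15. The fit was tested on simulated data. Depth was read from low values of genes with 1 transcript, of which 86.1% to 89.8% per library were whole fragments within 0.1 of a fragment. No 2 libraries held identical values (0 of 190 pairs), and p-values measure the spread between these libraries. Promoters came from RefSeq (GRCm38.p6, 28 of the 36 genes matched by symbol) and gene overlaps from the GENCODE annotation of GRCm38.

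All 36 genes are named by role. Values per library are printed for the 10 largest called KO falls, for called KO rises, for the 5 tested genes nearest 0 in KO and for genes under the minimum level, and other genes are given by mean or range. From each other list up to 3 genes with the smallest adjusted p in KO are named, and some of these are not reported here. The members and lists were chosen with earlier results of these data known. Alternatives covered the WT libraries used, the pseudocount, the minimum level, the scaling, the moderation, the replicate number as a block, the groups fitted and each library left out. Replicate numbers in the labels were not taken to pair the samples. Deviations of same-numbered libraries were compared for Rep1 to Rep5 only, and not all of them correlated above 0.1. The mutants were not set against WT Rep6 to Rep10 in this way, so the check cannot exclude pairing.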

Additional observations from a re-analysis of the deposited data

Results flagged for a closer look

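Fancg was called lower in KO and higher in R47H, and the direct test of R47H against KO gave a difference of 0.55 on the log2(FPKQ + 1) scale (limma adjusted p = 2.74e-04), with all 5 R47H libraries above 4 of the 5 KO libraries. Its R47H call was lost in 9 of the 20 fits that each left out 1 library (limma adjusted p = 0.0535 to 0.152). The KO call was lost with WT Rep1 to Rep5 as sole control (limma adjusted p = 0.172). Rbbp8 was called higher in KO and lower in R47H, with a difference of R47H from KO of -0.21 (limma adjusted p = 8.82e-04). Its calls against WT were lost in 11 (KO) and 8 (R47H) of the same 20 fits.

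In 5 of the 114 groups of values examined, 1 library stood apart from the rest of its group, and chance alone gives about 1 in 20. Topbp1 was highest in KO Rep5 at 12.7 FPKQ, against 11.7 in the next library. Fancm was highest in KO Rep3 at 1.56 FPKQ, against 1.23 in the next. R47H Rep2, the R47H library with the lowest division index, was lowest for Palb2 at 1.82 FPKQ, against 2.57 in the next, and highest for Fance at 10.9 FPKQ, against 9.29 in the next. Palb2 was highest in WT Rep5 at 3.51 FPKQ, against 3.02 in the next WT library.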

How the results depend on the processing

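Of the calls on the 30 genes, 17 of 22 in KO, 13 of 16 in R47H, 14 of 19 for R47H against KO and 0 of 2 slopes held under every alternative run, and no called value changed sign. In KO the lost calls were Fancg, Fancl, Mus81, Rbbp8 and Atr, in R47H Fancg, Mre11a and Rbbp8, and for R47H against KO Brip1, Eme1, Fanca, Topbp1 and Atm. The cause was not tested, except where fewer libraries or genes entered.

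Members higher in KO (2 in the report) numbered 1 against WT Rep1 to Rep5 alone, without the minimum level, at a minimum of 5 FPKQ and with the replicate block, and 0 with equal sums. Members higher in R47H (1) numbered 0 against WT Rep6 to Rep10 alone, without the minimum level, with equal sums, with quantile normalization and with only the groups compared. A minimum of 5 FPKQ tests fewer genes, 8234 in all and 11 of the members. Of these 11, 6 were lower in KO and 3 lower in R47H, beside 1984 and 544 of the 8234. For R47H against KO 5 were higher and 1 lower, beside 2028 and 1509 of the 8234. Called slopes (2) numbered 0 against either set of 5 WT libraries, with the replicate block and on an S phase index. They also numbered 0 in the 10 WT libraries alone and without the R47H libraries (an alternative chosen after seeing the data). At the minimum of 5 FPKQ they numbered 0, and Brca1 and Brip1 were not tested there. They numbered 1 with a pseudocount of 0.1 and 4 with quantile normalization. Over all tested genes 54 positive slopes were called in the main fit. That number was 14 against WT Rep1 to Rep5, 10 against WT Rep6 to Rep10, 1 with the replicate block and 21 on the S phase index. It was 0 in the 10 WT libraries alone and 0 without the R47H libraries. The R47H difference of Trem2 was -0.27 against WT Rep6 to Rep10 alone (exact permutation p = 0.135).

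Leaving out each library in turn gave 19 to 20 lower and 0 to 2 higher in KO (0 without KO Rep3 or Rep5), 13 to 16 lower and 0 to 1 higher in R47H, 15 to 18 higher and 3 lower for R47H against KO, and 0 to 2 slopes. The index differences ranged over -2.06 to -2.02 in KO, -1.11 to -0.93 in R47H and 0.93 to 1.10 between the mutants, and those of Trem2 over -5.03 to -4.99, -0.40 to -0.24 and 4.60 to 4.77.

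Same-numbered libraries among Rep1 to Rep5 of each group correlated in their deviations at -0.254 to 0.341 (KO and WT), 0.0223 to 0.224 (R47H and WT) and -0.120 to 0.309 (R47H and KO). With the replicate number as a block, 17 members were lower in KO and 13 in R47H, beside 1987 and 647 of all 10843 tested genes. WT Rep6 to Rep10 had no library of the same number in that fit. Its differences from WT were therefore those with WT Rep1 to Rep5 as sole control, and it is not a separate check.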
